A study of Homo sapiens with 5 samples.

Results

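The circadian clock genes described here are 10 genes, CRY1, CRY2, PER1, PER2, PER3, NR1D1, NR1D2, DBP, BHLHE40 and CLOCK, read by 14 of the 47317 probes of a bead array that covers 20045 named genes. Every probe that the platform annotation gives to these genes is included. The set was drawn up around CRY2 because of the size of its difference between week 8 and week 0 on these same arrays. That difference is therefore given as a description. Total RNA was measured in H9, an established line of human embryonic stem cells, while it was differentiated into corneal epithelial-like cells. Cells of every week were H9 cells kept in the defined medium E6, which was changed daily. The samples were undifferentiated cells at week 0 and differentiating cells at weeks 2, 4, 6 and 8, with 1 array and no replicate for each week. The hour of harvest and the time since the last change of medium are not given in the sources used here, and both can set the level of a clock gene. The spread between cultures is unknown, so no test was run and no error is given. In RNA from whole cultures, fewer cells of a type and less RNA per cell cannot be told apart.

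The clock of mammalian cells is a feedback loop of transcription. CLOCK and BMAL1 bind E-boxes as a pair and activate the PER and CRY genes, whose proteins return to the nucleus and inhibit the pair. In further loops, NR1D1 and NR1D2 (REV-ERB alpha and beta) repress BMAL1 through ROR elements, DBP activates genes through D-boxes, and BHLHE40 (DEC1) represses at E-boxes. Embryonic stem cells of the mouse are known for lacking a running clock, which appears as they differentiate, and the corneal epithelium of rodents is known for a daily rhythm of cell division.

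To show the control regions of the genes that the results turn on, RefSeq promoter windows (GRCh38.p14, 250 bases before to 50 bases after an annotated start) were searched on both strands for the E-box CACGTG, the variant E-box CACGTT, the D-box TTATGNAA, the ROR element core TAGGTCA and the cAMP response element TGACGTCA. All 10 genes had a window, 14 windows in all, since CRY2, PER3, NR1D2 and CLOCK had several. Where a gene below had several, the window with matches is shown. The windows below belong to CRY2 and BHLHE40, the 2 genes with the largest increases, to CLOCK, the gene called lower at week 8, and to NR1D2, which was not called at any week and had the most matches. Capitals mark the matches, and each window is written 5′ to 3′ on the strand of the gene.
CRY2, chr11:45847225-45847524, plus strand: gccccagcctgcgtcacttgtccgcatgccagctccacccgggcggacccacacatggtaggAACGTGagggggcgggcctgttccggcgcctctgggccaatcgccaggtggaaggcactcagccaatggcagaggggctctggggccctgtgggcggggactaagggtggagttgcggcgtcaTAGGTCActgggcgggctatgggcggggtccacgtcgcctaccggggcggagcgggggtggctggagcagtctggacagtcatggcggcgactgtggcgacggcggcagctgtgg
BHLHE40, chr3:4979187-4979486, plus strand: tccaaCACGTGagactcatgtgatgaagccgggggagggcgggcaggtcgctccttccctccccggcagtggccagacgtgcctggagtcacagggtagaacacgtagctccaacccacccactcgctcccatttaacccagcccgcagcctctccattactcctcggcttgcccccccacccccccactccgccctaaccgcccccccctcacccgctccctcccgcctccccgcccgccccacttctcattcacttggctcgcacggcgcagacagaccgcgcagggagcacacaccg
CLOCK, chr4:55545883-55546182, minus strand: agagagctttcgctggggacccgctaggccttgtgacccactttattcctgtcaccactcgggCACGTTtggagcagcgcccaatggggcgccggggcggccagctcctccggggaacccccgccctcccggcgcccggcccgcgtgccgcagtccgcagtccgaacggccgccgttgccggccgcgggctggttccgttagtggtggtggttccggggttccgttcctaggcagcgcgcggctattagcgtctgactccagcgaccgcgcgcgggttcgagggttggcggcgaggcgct
NR1D2, chr3:23945871-23946170, plus strand: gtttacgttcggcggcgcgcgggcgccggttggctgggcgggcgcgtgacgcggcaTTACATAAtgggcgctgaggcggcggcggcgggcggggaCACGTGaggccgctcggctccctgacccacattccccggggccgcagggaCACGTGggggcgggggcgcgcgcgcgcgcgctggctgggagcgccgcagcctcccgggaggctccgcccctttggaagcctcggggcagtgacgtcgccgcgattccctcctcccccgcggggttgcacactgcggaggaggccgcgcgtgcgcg

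Of the windows shown, that of CRY2 holds a variant E-box and a ROR element core, and that of BHLHE40 an E-box. The window shown for CLOCK holds a variant E-box, and that for NR1D2 holds 2 E-boxes and a D-box. Over the 14 windows, the E-box was found in 3, against 7.26% of all 35116 windows of the table, in PER1, NR1D2 and BHLHE40. The variant E-box was found in 5 (5.34% of all windows), in CRY1, CRY2, PER2, NR1D1 and CLOCK. The D-box was found in 3 (3.3%), in PER1, PER3 and NR1D2, and the ROR element core in 1 (1.85%), that of CRY2. No window of these genes held the cAMP response element (1.85%), and 5 windows held none of the 5 motifs. These were the window of DBP and the other windows of CRY2, PER3, NR1D2 and CLOCK. No matches overlapped each other. The GC share was 70.3% in the CRY2 window shown, 68.0% for BHLHE40, 71.3% for CLOCK and 77.3% for NR1D2. The other windows of CRY2, CLOCK and NR1D2 had 46.3%, 73.3% and 72.3%. The median of all windows was 58.7%, so base composition differed as well. Windows of a gene with several starts share their gene, and a match describes letters and not a bound site.

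**Figure D1:**
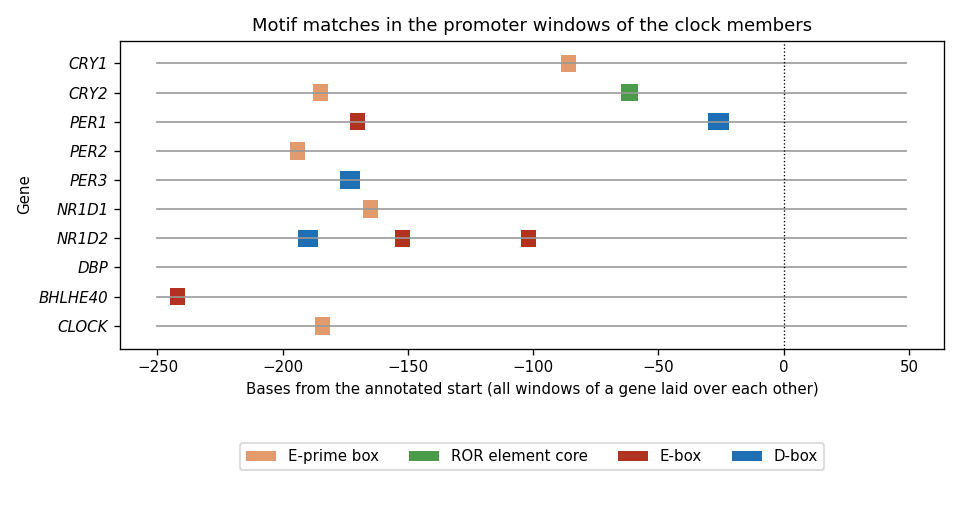
Positions of motif matches, in bases from the annotated start, in the promoter windows of the 10 clock genes, with all windows of a gene laid over each other. The E-boxes lie in PER1, NR1D2 and BHLHE40, the ROR element core lies in CRY2, and DBP has no match.

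A probe was taken as above background on an array where its detection p-value was under 0.01. Of the 10 genes, 9 were above background on at least 1 array, as were 13019 genes in all. CRY1, PER3, NR1D2, DBP, BHLHE40 and CLOCK were above background at all 5 weeks, CRY2 at weeks 4, 6 and 8, NR1D1 at weeks 0, 2 and 4, and PER2 at week 0, while PER1 was not above background at any week. Levels below are given as the deposited probe signal, which includes background, and as normalized log2 intensity. With no replicates, a call means only a size: a gene is called higher, or lower, at a 2-fold or larger difference of 2 arrays (1 in log2 units) with the brighter reading above background. Where an array was not above background its level was raised to the lowest level above background on that array, so the fold is a bound and is written "at least".

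Between 16993 and 18358 probes were above background on each array. The undifferentiated cells had all 6 pluripotency markers above background, and 3 of these 6 were above background at week 8. All 6 surface epithelium markers were above background at week 8, against 2 at week 0. Of the corneal markers, KRT3 and KRT12, the keratins of mature corneal epithelium, and ALDH3A1 were below background on every array. At week 8 the markers of stroma (6 of 6), pigment cells (5 of 5 measured) and neurons (6 of 6) were above background too. At week 0 the counts were 2 for stroma, 1 for pigment cells and 4 for neurons. The differentiated samples thus held RNA of more than epithelial genes, part of it present in the undifferentiated cells.

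Over the course 2 of the clock genes increased far more than the others. CRY2 was near background to week 4 and bright from week 6, and BHLHE40 increased from week 2 onward. CLOCK decreased, and CRY1, PER3, NR1D2 and DBP stayed within 2-fold of week 0 at week 8 on the probe that stands for the gene, the brightest. NR1D1 and PER2 were not above background at week 8, so their decreases have only a lower bound. Of 9 genes measured at week 0 or week 8, 2 were called higher (CRY2 and BHLHE40), 1 lower (CLOCK) and 6 were not called. Among all 12346 genes measured there, 16.8% were called higher and 15.4% lower. Higher genes made up 52.1% of all calls at week 8, and 41.9% when the arrays were instead brought to the same 75th percentile. The median difference at week 8 was 0.12 on the log2 scale for the 9 clock genes and -0.05 for all measured genes. Since CRY2 was chosen on this contrast, nothing is read from the count.

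**Figure D2:**
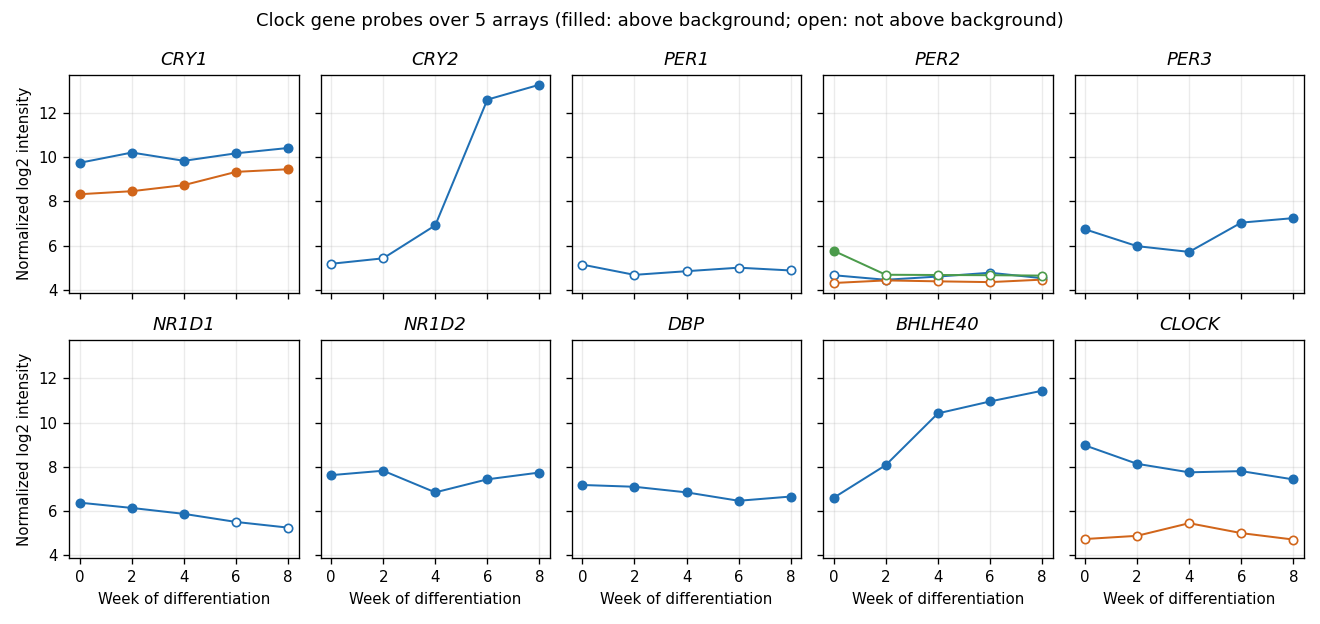
Normalized log2 intensity of all 14 probes of the clock genes (vertical axis) at weeks 0, 2, 4, 6 and 8 (horizontal axis), 1 array a week, with 1 line for each probe. CRY2 climbs to 13.28 and BHLHE40 to 11.44 at week 8, while the single probe of PER1 is open, that is not above background, on every array.

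CRY2 (cryptochrome 2, gene ID 1408, chromosome 11, 45847118 to 45883244 in GRCh38.p14) encodes one of the repressor proteins of the loop. Its single named probe had signals of 144.3, 145.7, 222.8, 5353.5 and 11448.5 at weeks 0, 2, 4, 6 and 8. The readings at weeks 0 and 2 were not above background, with detection p-values of 0.061 and 0.022, and the reading at week 4 was low but above it. On the normalized log2 scale the levels were 5.18, 5.43, 6.92, 12.61 and 13.28, of which the first 2, being not above background, have no order, and the later 3 increased with each week. The step between weeks 4 and 6 was measured on both arrays and came to 51.4-fold at week 6 over week 4, or 5.69 on the log2 scale. On that step CRY2 ranked 2 of 11730 measured genes, with bounds counted at their value, and 6.23% of them were called higher. The step is part of the difference that CRY2 was chosen on, so its rank is a description and nothing is read from it. Week 8 was at least 195-fold above week 0, and week 6 at least 122-fold above week 0. The early step was small: week 4 was at least 2.38-fold above week 0, and this call, like that of week 4 over week 2, was lost without background correction, with an offset of 50 and in the authors' processed values, where the difference was 0.53 at its lowest. Between weeks 6 and 8 the difference of 0.67 was not called. No further probe is named for CRY2, so its course rests on 1 probe, and whether that probe reads CRY2 alone was not examined here.

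CRY1 (cryptochrome 1, gene ID 1407, chromosome 12), the paralog of CRY2 and a strong repressor of CLOCK and BMAL1, did not share that course. Its brighter probe had signals of 1087.2, 1225.8, 946.1, 1104.1 and 1633.9 at weeks 0, 2, 4, 6 and 8, and its other probe 448.8, 436.9, 504.3, 682.1 and 903.7. Both probes were highest at week 8. The normalized difference of week 8 from week 0 was 0.67 on the brighter probe and 1.13 on the other, so the probes fell on different sides of the 2-fold limit. With the mean of the probes it was 0.90 and not called. At week 4 the direction of the brighter probe depended on scaling, at 0.09 with quantile normalization and -0.24 at a common 75th percentile.

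The PER genes encode the partners of the CRY proteins in repression, and little of them was measured. PER1 (gene ID 5187) had signals of 143.2, 124.0, 130.0, 136.0 and 141.8 at weeks 0, 2, 4, 6 and 8, none above background, with the lowest detection p-value, 0.069, at week 0. PER2 (gene ID 8864) has 3 probes. The brightest read 161.3 at week 0, with a detection p-value of 0.0039, and between 123.8 and 131.8 at the later weeks, when it was not above background. The other probes of PER2 were below background on all 5 arrays. Such readings leave the level of PER1 at every week, and that of PER2 after week 0, unknown below the detection limit.

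PER3 (gene ID 8863) was above background throughout and dipped in the middle of the course. Its signals were 211.2, 163.3, 156.9, 234.1 and 291.7 at weeks 0, 2, 4, 6 and 8. The lowest readings were thus those of weeks 2 and 4, and the highest that of week 8. Week 4 was called lower than week 0, with a difference of -1.02 on the log2 scale, and week 6 was 2.50-fold above week 4. Both calls lay near the limit. The first was kept under 3 of 7 alternatives and the second under 4 of 7, with the same direction under all of them. Week 8 differed from week 0 by 0.50 and was not called.

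NR1D1 and NR1D2, the REV-ERB repressors, differed in their course. NR1D1 (gene ID 9572) had signals of 188.2, 170.3, 162.6, 151.4 and 155.0 at weeks 0, 2, 4, 6 and 8, and was no longer above background at weeks 6 and 8. Its normalized levels were 6.38, 6.14 and 5.87 on the log2 scale at the first 3 of these weeks, each below the one before, and 5.51 and 5.25 at the others. The bound on the difference of week 8 from week 0 was -0.92 and was not called, but with a detection limit of 0.05, at which all its readings count as measured, it was -1.13 and called lower. NR1D2 (gene ID 9975) had signals of 309.2, 315.5, 216.9, 272.2 and 361.2. It was lowest at week 4, with a difference of -0.98 from week 2 that was not called in the main setting but was at a common 75th percentile, and at week 8 it differed from week 0 by 0.12.

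DBP (gene ID 1628), the D-box activator and a direct output of CLOCK and BMAL1 in the mouse, changed little. It read 251.1, 230.8, 216.9, 193.1 and 232.8 at weeks 0, 2, 4, 6 and 8, the lowest at week 6. Its largest difference from week 0 was -0.71 on the log2 scale, at week 6, and week 8 differed by -0.52. Neither was called.

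BHLHE40 (gene ID 8553, chromosome 3, 4979437 to 4985323 in GRCh38.p14), a basic helix-loop-helix repressor that also responds to hypoxia and growth signals, increased at every step. Its signals were 201.3, 356.7, 1351.7, 1796.5 and 3115.5 at weeks 0, 2, 4, 6 and 8, all above background. Normalized levels were 6.60, 8.08, 10.42, 10.96 and 11.44 on the log2 scale, so most of the increase lay before week 6. Week 2 was 2.78-fold above week 0, a call lost without background correction and in the authors' processed values, where the difference was 0.79 at its lowest. Week 4 was 5.06-fold above week 2. At week 8 the gene was 28.6-fold above week 0, and the difference of 4.84 stayed between 3.78 and 4.84 under 7 alternatives. BHLHE41, its paralog, was below background on all 5 arrays.

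CLOCK (gene ID 9575, chromosome 4, 55427903 to 55546909 in GRCh38.p14), the DNA-binding activator of the loop, was highest in the undifferentiated cells. Its signals were 657.8, 367.0, 310.2, 317.3 and 313.5 at weeks 0, 2, 4, 6 and 8, and the largest step between neighbouring weeks was that to week 2. Normalized levels were 8.97, 8.14, 7.75, 7.81 and 7.43 on the log2 scale. At week 2 the difference of -0.83 was not called. It was called lower at week 4 (-1.22), week 6 (-1.16) and week 8 (-1.54), and week 8 was called under all 7 alternatives, from -1.75 to -1.07. Without background correction and in the authors' processed values the calls at weeks 4 and 6 were lost, with -0.88 and -0.85 in the authors' values. A further probe, designed on another cDNA, was not above background on any array.

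Counted by week, 1 of 8 measured clock genes was called higher at week 2 (BHLHE40) and none lower, where 10.7% of 11699 genes were called higher and 9.28% lower. At week 4, 2 of 9 were higher (CRY2 and BHLHE40) and 2 lower (PER3 and CLOCK), against 14% and 11.5% of 11836 genes. At week 6, 2 of 9 were higher (CRY2 and BHLHE40) and 1 lower (CLOCK), against 15.8% and 14.1% of 12029 genes. These 3 comparisons share the week 0 array with that of week 8. Between neighbouring weeks, 2 of 8 genes were called higher from week 2 to week 4 (CRY2 and BHLHE40; 7.26% of all genes), 2 of 8 from week 4 to week 6 (CRY2 and PER3; 6.23%) and 0 of 7 from week 6 to week 8 (1.92%), and none was called lower in these steps (5.42%, 4.26% and 1.08% of all genes). The last of these steps had the fewest calls over all genes among the 3 after week 2. Nothing is read from these counts.

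**Figure D3:**
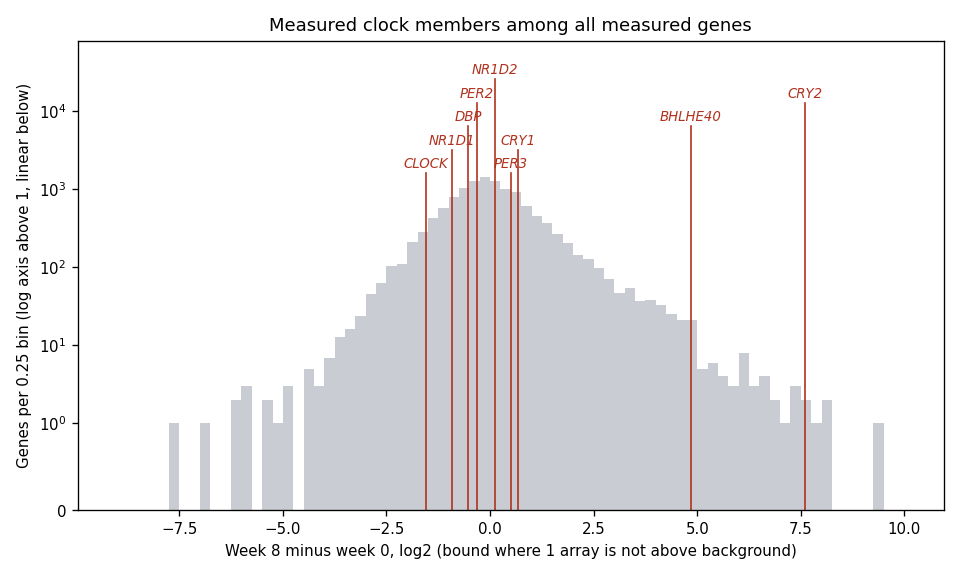
Histogram of the week 8 minus week 0 difference on the log2 scale over 12346 measured genes (vertical axis: genes per bin, on a log scale above 1), with red lines at the 9 measured clock genes. CRY2 at 7.61 and BHLHE40 at 4.84 lie in the upper tail, CLOCK at -1.54 in the lower shoulder, and the other 6 lie between -0.92, a bound for NR1D1, and 0.67.

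The other transcription factors and regulators of the clock gave a mixed picture. Of 14 such genes, 11 were measured at week 8 or week 0, and 2 were called higher, 3 lower and 6 not called, with a median difference of -0.01. Over all measured genes 16.8% were called higher at week 8 and 15.4% lower, and nothing is read from the count. NFIL3, which represses at D-boxes, read 340.2, 464.5, 485.7, 522.5 and 823.0 at weeks 0, 2, 4, 6 and 8 and was 2.81-fold higher at week 8. RORB, a nuclear receptor that activates at ROR elements, was 2.16-fold higher at week 8 but had been called lower at week 2 (-1.12). Its call at week 8 against week 0 was lost under 3 alternatives. Between neighbouring weeks RORB moved both ways, and week 8 was 3.82-fold above week 6. TIMELESS, which also serves DNA replication, read 1525.9, 1293.2, 1037.1, 618.0 and 489.5 and was 3.67-fold lower at week 8. NOCT (Nocturnin), a rhythmic phosphatase gene, was 2.67-fold lower, and HLF, a relative of DBP, 2.39-fold lower, and the calls of NOCT and HLF were lost without background correction and in the authors' processed values. Among genes not called at week 8, BMAL1, the partner of CLOCK, was above background throughout, at signals of 193.3, 155.9, 163.7, 162.1 and 187.2, and differed from week 0 by -0.49. NPAS2, which can take the place of CLOCK, was above background at week 8 alone, with a bound of 0.59 (called higher with a detection limit of 0.05), RORA had a bound of 0.55, and TEF, another relative of DBP, differed by 0.35. BMAL2 and BHLHE41 were below background on all arrays.

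**Figure D4:**
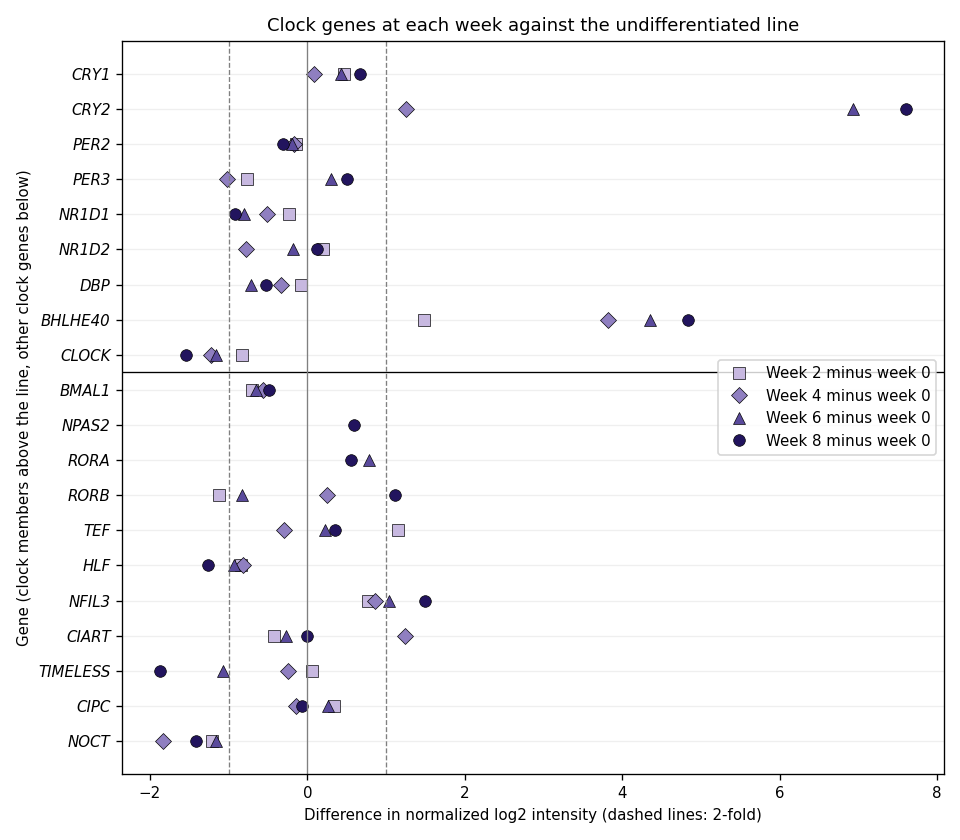
Difference in normalized log2 intensity of weeks 2, 4, 6 and 8 from week 0 (horizontal axis, dashed lines at 2-fold) for the 9 measured clock genes and, below the line, 11 other clock genes. CRY2 and BHLHE40 reach 7.61 and 4.84 at week 8, and the largest difference among the other clock genes at week 8 is that of TIMELESS, at -1.88.

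Kinases and other enzymes that set the stability or activity of clock proteins also differed both ways. Of 12 genes, 10 were measured, 1 was called higher and 2 lower at week 8, with a median of 0.12. The shares over all genes were 16.8% and 15.4%. GSK3B, a kinase of clock proteins, was 4.28-fold higher at week 8, while CSNK2A1, a subunit of casein kinase 2, was 2.36-fold lower and the deacetylase gene SIRT1 2.20-fold lower. The calls of CSNK2A1 and SIRT1 were lost without background correction and in the authors' processed values, and that of CSNK2A1 also with the mean of its probes (-0.92). CSNK1D, a kinase that phosphorylates PER proteins, differed by 0.53, CSNK2B had a bound of 0.74, and DDB1 and BTRC, of ubiquitin ligases, differed by 0.47 (-0.04 with the mean of its probes) and -0.33. None of these was called.

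Genes known as outputs of the clock in the mouse likewise went both ways. Of 8 genes, 7 were measured, and at week 8 PDK4, a kinase of pyruvate metabolism, was at least 2.95-fold higher, NAMPT, of NAD synthesis, 2.93-fold lower and WEE1, a kinase that holds back mitosis, 2.34-fold lower. TSPAN4 differed by 0.75 and was not called, and the list median was 0.32. Over all genes 16.8% were called higher at week 8 and 15.4% lower. The call of PDK4 was lost without background correction and in the authors' processed values. PER1 is also known as a gene that responds within hours to growth factors, cAMP and glucocorticoids, so genes of these responses are given beside it. Of 9 acute response genes 6 were measured and 3 were called higher at week 8, against 16.8% of all genes. FOS was 10.9-fold, JUNB 2.93-fold and SIK1 2.26-fold higher, the last not called without background correction or in the authors' processed values. EGR1 read 640.5 at week 6 and 222.2 at week 8 and had a bound of 0.86 at week 8, which became 1.26 and a call with a detection limit of 0.05. Of 6 glucocorticoid response genes, PER1 included, 2 were measured at week 8 or week 0. TSC22D3 was 4.00-fold higher and SGK1 differed by 0.17 (-0.13 at a common 75th percentile). Earlier weeks differed more: SGK1, a kinase gene, was called lower at week 2 (-2.48) and week 4 (-2.32), and week 6 was 3.91-fold above week 4. ZBTB16, a zinc finger factor, was above background at weeks 2 and 4 alone, at least 3.33-fold and at least 5.57-fold above week 0, and is named for this course after its values were seen.

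To see which genes had a course most like that of CRY2, log2 profiles over the 5 arrays, each taken around its own mean, were compared by Euclidean distance among 10957 genes above background on at least 3 arrays. The distances use the normalized levels of all arrays, also those not above background, which CRY2, KRR1, SLC35D3, KRT40 and KRT5 all had at weeks 0 and 2, so these genes passed through the weeks at which they were bright. The nearest was KRR1, a ribosome assembly gene, at a distance of 1.31, where the median distance was 7.95. It was followed by SLC35D3, a member of the nucleotide sugar transporter family (2.04), KRT40, a keratin gene (2.12), LGALS7, the galectin 7 gene of stratified epithelium (2.18), which has a near-identical copy, and KRT5, the keratin gene of basal epithelial cells (2.24). KRR1 read 116.2, 115.9, 205.3, 1465.8 and 4463.5 at weeks 0, 2, 4, 6 and 8 and was at least 77.5-fold higher at week 8 than at week 0. KRT5 read 134.3, 125.6, 369.2, 1598.8 and 5676.4. Among the clock genes BHLHE40 was nearest to CRY2, at 4.90, in place 116 of all genes, and the next, PER3, lay at 6.98. With levels not above background raised to the floor, KRR1 was still nearest, at 1.80, and 3 of these 5 genes were among the nearest 5 (KRR1, KRT40 and LGALS7), while KRT5 and SLC35D3 came in places 7 and 8 behind TTR and CRYAA. That setting was chosen after seeing the data. The distances rest on 5 arrays and carry no test. Whether the probes of KRR1 and the other near genes read those genes alone was not examined.

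**Figure D5:**
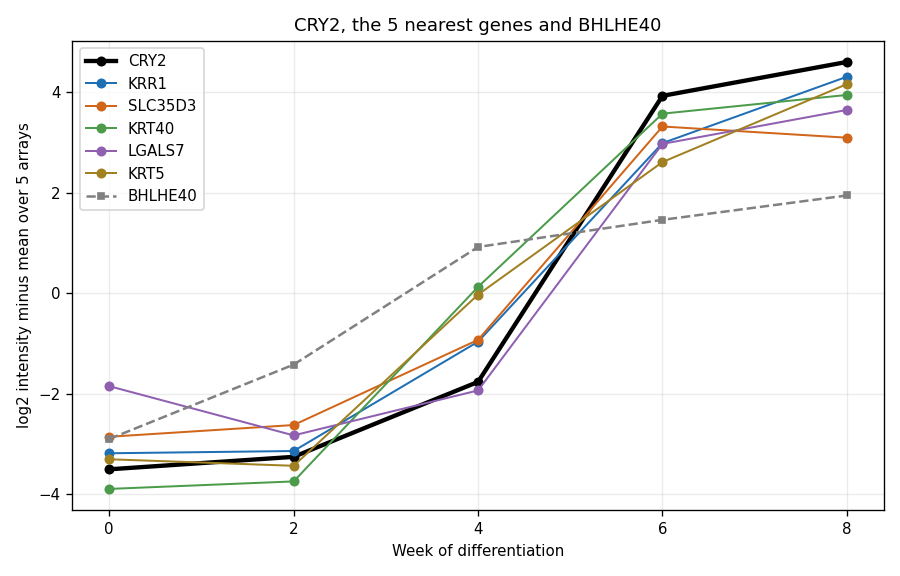
Log2 intensity around each gene's own mean over 5 arrays (vertical axis) by week (horizontal axis) for CRY2 (thick black), its 5 nearest genes and BHLHE40 (dashed). CRY2 and its neighbours stay low to week 2 and are highest at weeks 6 and 8, whereas BHLHE40 increases from week 2.

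Markers of several cell types moved over the same weeks. On the linear normalized scale, the summed level of the 6 surface epithelium markers was 283, 280, 3455, 17734 and 27297 at weeks 0, 2, 4, 6 and 8. Such a sum follows its brightest genes, here KRT16 (14.22 on the log2 scale at week 8) and KRT5 (12.31). From week 6 to week 8, 3 of the 6 were called higher, against 1.92% of all genes. KRT14 differed by -0.06 and DSC2 by 0.09 on that step. That of the 3 measured corneal markers was 136, 250, 4499, 7663 and 7060. The sum of the 5 measured pigment cell markers was 1351, 2831, 5610, 23443 and 30139. For the 6 stroma markers it was 1922, 18836, 19590, 31870 and 41608. At weeks 2 and 4 the stroma sum was mostly VIM, at 13.81 and 14.03 on the log2 scale. From week 2 to week 4, LUM, PDGFRA and TWIST1 were called lower and DCN higher, with a median of -0.76 over the 6. Over all genes 5.42% were called lower and 7.26% higher on that step. The sum of the 6 neuron markers peaked at week 4, with 1170, 8720, 13411, 4402 and 5624. STMN2 was the brightest of them at week 4, at 13.15 on the log2 scale, while DCX was lowest at that week, at 9.29. The 6 cell division markers fell to 1691 at week 8, against 9323 at week 0, and the 6 pluripotency markers to 473, against 29522. At the step between weeks 4 and 6 on which CRY2 increased, the surface epithelium, corneal, pigment and stroma sums increased as well. The neuron, cell division and pluripotency sums decreased. On that step 4 of the 6 neuron markers were called lower and 1, ELAVL4 (1.26), was called higher. TIMELESS differed from week 0 by 0.06, -0.24, -1.07 and -1.88 at weeks 2, 4, 6 and 8, so it was called lower at weeks 6 and 8. The largest week 8 differences within these lists were those of KRT16 (302-fold) and KRT5 (at least 6.64 on the log2 scale) for surface epithelium. Among the 3 measured genes of the corneal list they were those of ALDH1A1 (69.1-fold) and PAX6 (at least 46.4-fold). For pigment cells they were those of TYRP1 (at least 208-fold) and TYR (at least 21.9-fold). For stroma they were those of DCN and LUM (at least 181-fold and at least 131-fold). NEUROG2 and STMN2 of the neuron list were 21.3-fold and 20.3-fold higher, BUB1 and MCM4 of the division list 8.85-fold and 11.9-fold lower, and DNMT3B and LIN28A of the pluripotency list 73.0-fold and at least 202-fold lower. The part of any of these cell types in the levels of CRY2, BHLHE40 or CLOCK was not tested.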

How the data were processed

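Total RNA of 5 samples was hybridised to 1-colour Illumina bead arrays after biotin labelling, per the labels' protocols. Both deposited tables were used. The first holds linear mean bead intensity, per the file headers, before normalization or background subtraction. It also holds a detection score for each probe, a deposited fraction that reaches 1 for bright probes and was therefore subtracted from 1 to give a detection p-value. The second holds the authors' processed intensity, by a method not stated in the files or labels. The neqc function (limma 3.58.1, R 4.3.3) was applied to the first table: background correction inferred from detection p-values, offset 16, quantile normalization and log2. Later steps used Python 3.11.15 and pandas 2.3.3, and the steps were tested on simulated data. Of the probes, 30110 had 1 gene symbol, 8 had several and 17199 are unnamed here, and 30071 symbols were updated through Entrez identifiers. A gene took the probe of highest mean among those above background on at least 1 array. Precision is limited by having 1 array for each week. Alternatives were no background correction, 75th percentile scaling, an offset of 50, a detection limit of 0.05, the mean of probes, the authors' values, and a restriction to genes detected on all 5 arrays.

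The members and lists were chosen with earlier results of these data known. All 10 members and all their probes are named. Of other clock lists, every gene called at week 8 and the 4 largest other differences are named, up to 4 genes for output and response lists, 2 for each marker list and 5 genes nearest to CRY2. EGR1 at week 6, BMAL2, BHLHE41 and ZBTB16 complete counts, and 1 further gene of the list of other clock regulators is not reported here.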

Additional observations from a re-analysis of the deposited data

How the results depend on the processing

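The week 8 minus week 0 difference of each of the 9 measured clock genes kept its direction under every alternative that gave a value. PER2 was above background at week 0 alone, at 5.77 on the log2 scale. In the main setting its week 8 level was raised to the floor of 5.46, under the week 0 floor of 5.67. Its negative sign thus follows from the floor, and nothing is read from its kept direction. NR1D1 also stood at that floor at week 8 in the main setting. CRY2 stayed between 5.98 and 8.02 on the log2 scale, BHLHE40 between 3.78 and 4.84 and CLOCK between -1.75 and -1.07. NR1D1 was called lower, at -1.13, with a detection limit of 0.05, so that 2 clock genes were lower at week 8. Scaling to a common 75th percentile moved the median difference of all genes at week 8 to -0.21, against -0.05, and the share of higher calls to 46.3%, 41.5% and 39.5% at weeks 2, 4 and 6, against 53.5%, 54.9% and 52.9%, and 1 clock gene was then lower at week 4. Without background correction 0 clock genes were higher at week 2, 1 was higher and 0 lower at week 4, and 0 were lower at week 6, with 1258 genes higher and 996 lower at week 8. With the authors' processed values the clock counts were the same, 0, 1, 0 and 0, beside 1243 genes higher and 943 lower. Under either of these, the other clock regulators had 1 higher and 1 lower, the stability enzymes 0 lower and the output genes 0 higher at week 8. With an offset of 50, 1 clock gene was higher and 1 lower at week 4, and 1 other clock regulator was higher at week 8. With genes restricted to those detected on all 5 arrays CRY2 drops out, so 1 clock gene was higher at weeks 4, 6 and 8, with 1319 genes higher over all and 0 output genes higher at week 8. With the mean of probes 1 stability enzyme gene was lower and the median of the output genes turned to -0.02. At a common 75th percentile the medians of the other clock regulators and the stability enzymes turned, to 0.01 and -0.17. Apart from fewer genes tested, the cause of these shifts was not tested. No paired analysis was possible because each week has 1 array. Readings near background, those of PER1, PER2, NR1D1 and early CRY2, limit what the arrays show.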
